A study of Rattus norvegicus with 12 samples.

Results

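The genes of fatty acid oxidation and ketone body use were followed in the ventricles of 12 rats, on an oligonucleotide array that reads a transcript through sets of short probes. The list held 38 genes, chosen by their enzymatic role, of which 37 had a probe set annotated with that symbol alone, and 35 of these were bright enough to be tested, among 10527 probe sets tested in all. Acaa1a, the peroxisomal thiolase, had no such probe set, and Acadsb and Acot1 lay below the filter on dim probe sets. The 2 d IR group (IR, ischaemia with reperfusion) had the left anterior descending coronary artery occluded during 30 min and gave tissue after 2 days of restored flow, and the 2 d sham group had sham surgery and gave tissue 2 days after it. The 7 d IR group had the same occlusion with 7 days of reperfusion, and the 7 d sham group had sham surgery with the same interval. Each of the 4 groups held 3 rats with 1 array each. The labels name no strain, sex or age and do not say which region of the ventricle was sampled.

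The adult heart draws most of its energy from long-chain fatty acids. They enter the cell and bind to carrier proteins, are activated to acyl-CoA esters, and pass into the mitochondrion as carnitine esters. There each turn of beta-oxidation shortens the chain through a dehydrogenase, a hydratase, another dehydrogenase and a thiolase, and auxiliary isomerases and a reductase deal with double bonds. Electrons from the acyl-CoA dehydrogenases reach the respiratory chain through the electron transfer flavoprotein. Ketone bodies are a further fuel of the heart and are turned into acetyl-CoA by enzymes of the same compartment. In rodents many of these genes are targets of the nuclear receptor PPARalpha.

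Values are signals on the linear scale of the array software, and changes are log2 differences of signal + 195, IR minus sham, with limma's standard error (SE) and a p-value adjusted by the Benjamini-Hochberg method over all 10527 probe sets. Folds are taken on this scale, which understates the changes of dim genes. A gene was called at an adjusted p under 0.05. Counts of genes at an unadjusted p under 0.05 are given without the share over all probe sets. They do not show whether a count is unusual for these arrays. Per-array signals are given in the order of the replicate numbers, which are 69, 73 and 76 for 2 d IR, 71, 72 and 74 for 2 d sham, 44, 47 and 48 for 7 d IR, and 80, 81 and 82 for 7 d sham. Array 69 and array 82 stood apart from their groups. The mean level of the 35 tested genes, taken on the log2 scale against the mean of the sham arrays of the same day, was -0.491 on array 69, while arrays 73 and 76 had -0.132 and -0.180. On the 7 d sham array 82 it was 0.169, against -0.089 and -0.080 on arrays 80 and 81. All 3 of the 7 d IR arrays lay low, between -0.595 and -0.435.

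At 7 d most of the pathway fell in IR hearts. Of the 35 genes tested, 24 were called lower and 0 higher, where 5.84% of all tested probe sets were called lower and 6.22% higher. The median change of the 35 genes was -0.62, against 0.01 over all probe sets, and 29 of the 35 had an unadjusted p under 0.05. In 29 genes all IR arrays lay below all sham arrays, a pattern that 15.8% of all tested probe sets showed. The largest change on this scale was that of Eci1, an isomerase for unsaturated fatty acids, which was 2.14-fold lower, and the smallest called change was that of Fabp3, the fatty acid binding protein of heart muscle, at -0.52. The order depends on the 195 added before taking logs: by group mean signals Acot2 was 2.79-fold, Acsl6 2.71-fold and Eci1 2.18-fold lower in IR hearts, and with 50 added the log2 changes were -1.29, -1.34 and -1.11, with Acot2 then past the threshold (limma adjusted p = 0.044). Ventricle is bulk tissue, and in it fewer heart muscle cells and less RNA per cell cannot be told apart.

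The 7 d count depended on which arrays were in the fit. It was 4 without 7 d sham array 82, 10 without 7 d IR array 44 and 15 without 7 d IR array 48, and between 20 and 28 with any other array left out. Calls over the whole array moved as well: 615 of 10527 probe sets were called lower with all arrays, 54 of 10422 without array 82, 196 of 10448 without array 44 and 427 of 10452 without array 48. The median change of the list was -0.51 without array 82, -0.57 without array 44 and -0.61 without array 48, against -0.62 with all arrays. Acadl, Eci1, Etfb and Ivd were called in each of the 12 fits that left out an array. Without arrays 69 and 82 together, 18 genes were called lower.

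At 2 d the changes were smaller and few passed the test. 2 genes were called lower, Acsl1 and Ivd, where 0.589% of all probe sets were, and 1 was called higher, Acsl4, where 1.88% were. The median change was -0.35, against 0.00 over all probe sets, and 20 genes had an unadjusted p under 0.05. All 2 d IR arrays lay below all sham arrays in 21 genes, which 12.5% of all tested probe sets did, and above them in 2 genes, Acsl4 and Acsl5, which 13.9% did. The count of 3 called genes was 0 without 2 d IR array 69, 6 without 2 d IR array 73, 4 without 7 d sham array 82, 2 without 7 d IR array 44, and 0 or 1 without each of the other 8 arrays. Over all probe sets 260 were called in either direction with all arrays, 2 without array 69, 521 without array 73 and 506 without array 82. The median change of the list was -0.21 without array 69 and -0.41 without array 73. None of these 3 genes was called in every fit that left out an array.

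**Figure D1:**
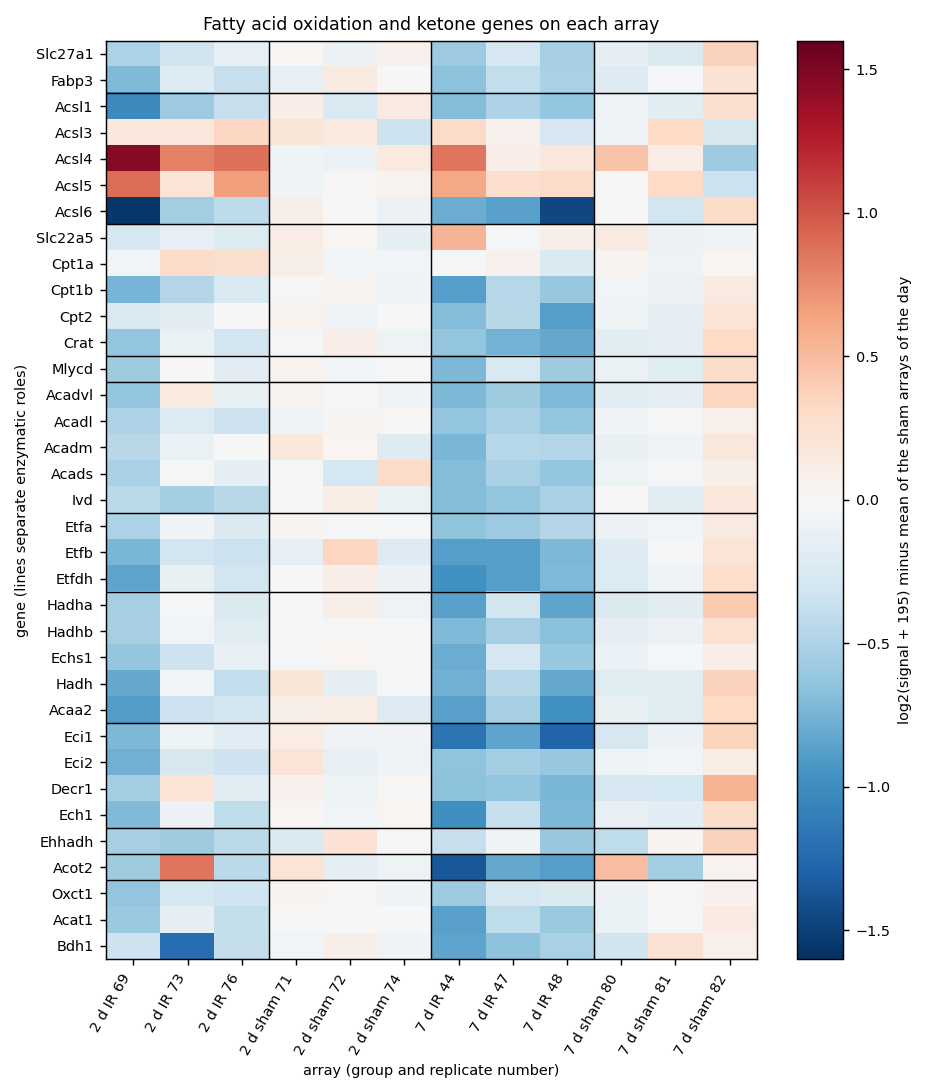
Log2(signal + 195) of the 35 tested genes (rows, grouped by role) on each of the 12 arrays (columns), minus the mean of the sham arrays of the same day; blue is lower and red higher. Most rows are blue on the 7 d IR arrays and on 2 d IR array 69, while Acsl4 and Acsl5 are red on the 2 d IR arrays.

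Averaged over both days, with all 12 arrays contributing, 27 genes were called lower and 2 higher, where 10.5% of all tested probe sets were called lower and 12.4% higher. The median change was -0.46, against 0.01 over all probe sets. The 2 that rose were Acsl4 and Acsl5. 25 of these 29 genes were called in each of the 12 fits that left out an array, the others being Acadvl, Hadha, Mlycd and Slc27a1. Without arrays 69 and 82 together 21 genes were called, all lower, and Acsl4 and Acsl5 no longer passed (adjusted p = 0.0707 and 0.0916).

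No gene of the list passed the test of a difference between the 7 d and the 2 d effect, in which limma called 0.0095% of all probe sets. 2 genes had an unadjusted p under 0.05, a threshold at which the share of all probe sets was not counted. Neither gene is shown to differ in its effect between the days. That 24 genes were called at 7 d and 3 at 2 d is therefore not shown to be a difference between the days. The largest of these differences with an unadjusted p under 0.05 was that of Eci1, whose IR effect was -1.10 at 7 d and -0.32 at 2 d (difference -0.77, adjusted p = 0.543). The other was that of Cpt2, with -0.67 at 7 d and -0.14 at 2 d (difference -0.53, adjusted p = 0.544).

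**Figure D2:**
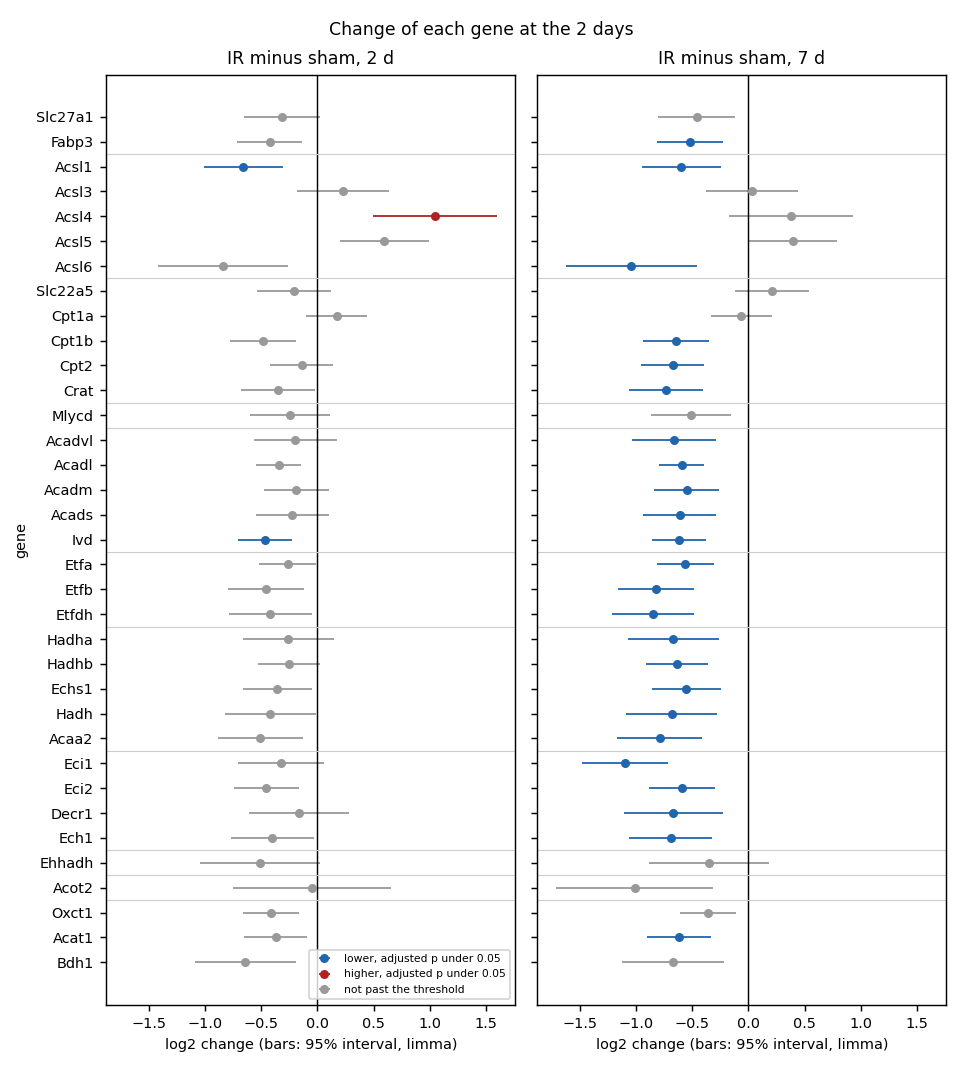
Log2 change, IR minus sham, of each of the 35 tested genes at 2 d (left) and 7 d (right); points are limma estimates, bars their 95% intervals, and colour marks genes past the threshold. At 7 d 24 genes are called lower, and at 2 d Acsl1 and Ivd are called lower and Acsl4 higher.

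Of the uptake genes, 1 of 2 was called lower at 7 d. This count and those of the roles below stand beside the 5.84% of all tested probe sets called lower at 7 d. Fabp3 carries fatty acids through the cytosol of heart muscle cells. At 2 d its signals were 43599, 62059 and 55295 in IR hearts, against 65056, 78922 and 70968 in sham hearts, and at 7 d they were 40277, 48683 and 44621 in IR hearts, against 55279, 62868 and 74573 in sham hearts. The IR arrays lay below the sham arrays on both days. The change passed the test at 7 d (log2 change -0.52, SE 0.14, adjusted p = 0.026) and not at 2 d (log2 change -0.43, SE 0.14, adjusted p = 0.097). Slc27a1, a fatty acid transport protein of the cell surface, had 2176, 2753 and 2264 in 7 d IR hearts and 3025, 2844 and 4407 in 7 d sham hearts. Its groups did not overlap, and the change did not pass (log2 change -0.46, SE 0.16, adjusted p = 0.0725). At 2 d its change was -0.32 (SE 0.16, adjusted p = 0.27).

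The long-chain acyl-CoA synthetases, which activate fatty acids, did not all change in the same direction. Acsl1, the main form of heart muscle, had signals of 7635, 10407 and 12124 in 2 d IR hearts, against 16888, 13231 and 17431 in 2 d sham hearts. In 7 d IR hearts it had 8588, 9874 and 9005, against 13148, 12387 and 16699 in 7 d sham hearts. On both days every IR array lay below every sham array, and array 69 was the lowest of all 12. Acsl1 was 1.58-fold lower at 2 d (log2 change -0.66, SE 0.16, adjusted p = 0.0484) and 1.52-fold lower at 7 d (log2 change -0.60, SE 0.16, adjusted p = 0.0308). A further probe set of Acsl1 gave -0.53 at 2 d and -0.34 at 7 d and did not pass on either day (adjusted p = 0.110 and 0.230), and it passed for the average of both days (-0.43, adjusted p = 0.0231).

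Acsl6, a form best known from brain, had 389, 357 and 172 in 7 d IR hearts, against 825, 627 and 1041 in 7 d sham hearts. The groups did not overlap, and Acsl6 was 2.06-fold lower (log2 change -1.04, SE 0.27, adjusted p = 0.0249). At 2 d it had 203, 597 and 679 in IR hearts, against 1053, 969 and 900.5 in sham hearts, with array 69 far below the others, and did not pass (log2 change -0.84, SE 0.27, adjusted p = 0.0979).

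Acsl4, which prefers arachidonic acid, went the other way. Its signals were 1842, 1112 and 1174 in 2 d IR hearts, against 514, 504 and 639 in 2 d sham hearts. All IR arrays were higher than all sham arrays, array 69 most of all, and the gene was 2.07-fold higher (log2 change 1.05, SE 0.26, adjusted p = 0.0468). Without array 69 the change was 0.84 and did not pass (adjusted p = 0.252). At 7 d Acsl4 had 1474, 791 and 844 in IR hearts, against 1061, 802 and 425 in sham hearts. These groups overlapped, with a single high IR array, 44, and a single low sham array, 82 (log2 change 0.38, SE 0.26, adjusted p = 0.366).

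Acsl5, a form of mitochondria and the endoplasmic reticulum, had 3114, 1864 and 2636 in 2 d IR hearts, against 1489.9, 1601 and 1649.8 in 2 d sham hearts. The 2 d groups did not overlap, and the change did not pass (log2 change 0.60, SE 0.19, adjusted p = 0.0904). In 7 d IR hearts it had 3156, 2432 and 2504, against 2031, 2527 and 1537 in 7 d sham hearts, with overlap (log2 change 0.39, SE 0.19, adjusted p = 0.184). Over both days together Acsl5 rose by 0.49 (SE 0.13, adjusted p = 0.0154) and Acsl4 by 0.71 (SE 0.18, adjusted p = 0.0129). Acsl3, a form of lipid droplets, ranged from 804 to 926 in 2 d IR hearts and from 505 to 824 in 2 d sham hearts, and its 7 d groups overlapped as well, with changes of 0.23 (SE 0.19, adjusted p = 0.544) at 2 d and 0.04 (SE 0.19, adjusted p = 0.923) at 7 d.

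Synthetases were also set against each other within arrays, as the log2 difference of a pair of genes in IR minus the same in sham hearts, averaged over both days. These pairs were picked after their values were known, so the differences are a description with no test. The value was -1.34 for Acsl1 minus Acsl4, -1.13 for Acsl1 minus Acsl5, -0.76 for Acsl1 minus Acsl3 and 0.31 for Acsl1 minus Acsl6. IR and sham arrays did not overlap on either day for the pairs with Acsl4 and Acsl5, and overlapped on both days for the pair with Acsl6. For the pair with Acsl3 they lay apart at 2 d and overlapped at 7 d.

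**Figure D3:**
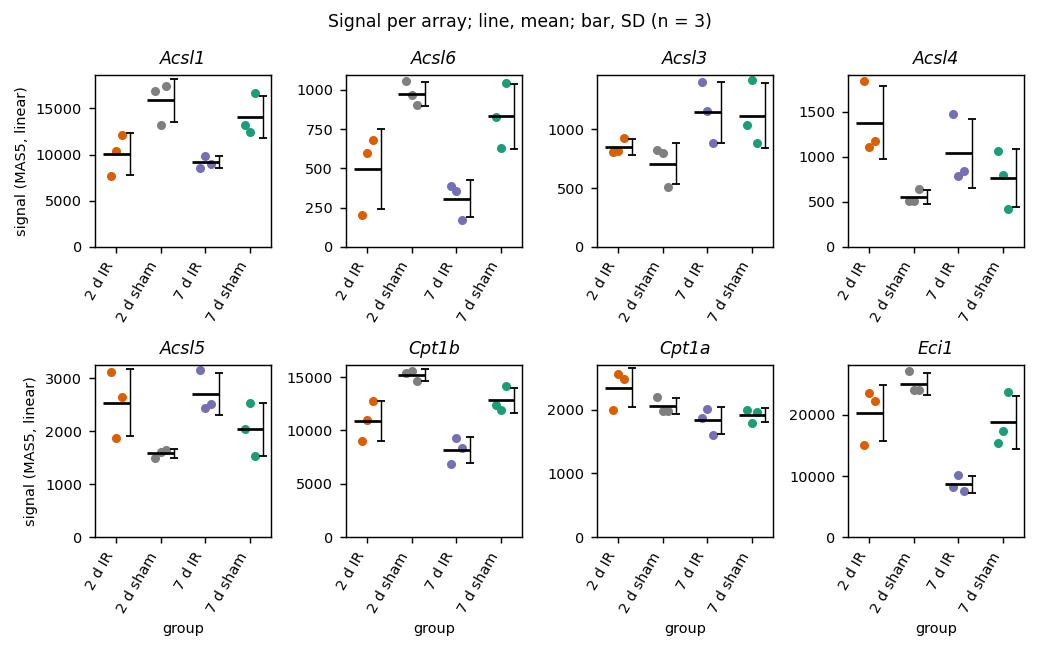
Linear signal of 8 genes on each array, by group; points are arrays, lines group means and bars the SD (n = 3), each panel with its own axis from 0. Acsl1, Acsl6, Cpt1b and Eci1 have 7 d IR arrays that lie below the 7 d sham arrays, Acsl4 and Acsl5 have 2 d IR arrays that lie above the 2 d sham arrays, and the groups of Cpt1a and Acsl3 overlap at 7 d.

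In the carnitine shuttle 3 of 5 genes were called lower at 7 d, and the muscle form of the gatekeeper enzyme was among them while the liver form was not. Cpt1b, the muscle form of carnitine palmitoyltransferase 1, had 8969, 10967 and 12765 in 2 d IR hearts, against 15374, 15626 and 14626 in 2 d sham hearts. At 7 d it had 6855, 9285 and 8335 in IR hearts, against 12375, 11947 and 14176 in sham hearts. The groups did not overlap on either day, and the change passed at 7 d (log2 change -0.65, SE 0.14, adjusted p = 0.0121) but not at 2 d (log2 change -0.49, SE 0.14, adjusted p = 0.0701). Cpt1a, the liver form, had 1994, 2566 and 2479 in 2 d IR hearts, against 2200.2, 1980.2 and 1983 in 2 d sham hearts, and 1873, 2014 and 1608 in 7 d IR hearts, against 1989, 1796 and 1969 in 7 d sham hearts. Its groups overlapped on both days, and its changes were 0.17 (SE 0.13, adjusted p = 0.478) at 2 d and -0.06 (SE 0.13, adjusted p = 0.785) at 7 d, with a 95% interval of -0.34 to 0.21 at 7 d. A further probe set of Cpt1a gave changes of the opposite sign, -0.23 and 0.12, that did not pass. The within-array difference Cpt1b minus Cpt1a was lower in IR hearts by 0.66 at 2 d and by 0.58 at 7 d (changes of -0.66 and -0.58, average -0.62). This pair too was chosen with earlier results of these data known, so the difference is a description with no test. IR and sham arrays did not overlap in this difference on either day. With the further probe set of Cpt1a, an alternative chosen after seeing the data, it was -0.26 at 2 d, with overlap, and -0.77 at 7 d, without overlap (average -0.52).

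Cpt2, the transferase of the inner mitochondrial membrane, had 4658, 5566 and 4082 in 7 d IR hearts, against 7272, 6953 and 8912 in 7 d sham hearts. Every IR array lay below every sham array (log2 change -0.67, SE 0.13, adjusted p = 0.00946). At 2 d it had 7002, 7302 and 8299 in IR hearts, against 8656, 7986 and 8306 in sham hearts, and the groups overlapped (log2 change -0.14, SE 0.13, adjusted p = 0.584). Crat, carnitine acetyltransferase, which exports surplus acetyl groups, had 4083, 3699 and 3546 in 7 d IR hearts, against 5641, 5810.2 and 8032 in 7 d sham hearts. It was 1.67-fold lower without overlap (log2 change -0.74, SE 0.15, adjusted p = 0.0113), and its 2 d change was -0.35 (SE 0.15, adjusted p = 0.201). Slc22a5, the carnitine transporter of the cell surface, ranged from 1000.2 to 1595 in 7 d IR hearts and from 957 to 1160.4 in 7 d sham hearts, with overlap and changes of -0.21 (SE 0.15, adjusted p = 0.461) at 2 d and 0.21 (SE 0.15, adjusted p = 0.417) at 7 d. Mlycd, which removes malonyl-CoA, the inhibitor of carnitine palmitoyltransferase 1, had 4468, 6259 and 4982 in 7 d IR hearts, against 6929.8, 6521 and 9211 in 7 d sham hearts. Its 7 d groups did not overlap, and the change did not pass (log2 change -0.51, SE 0.17, adjusted p = 0.0595).

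All 5 tested acyl-CoA dehydrogenases fell at 7 d (median change -0.61). All of them but Ivd, described below, act in the opening step of each oxidation turn. Acadvl, for very long chains, had 7066, 7836 and 7084 in 7 d IR hearts, against 10299.8, 10453 and 14919 in 7 d sham hearts. The groups did not overlap, array 82 was far above the other sham arrays, and the change was -0.66 (SE 0.17, adjusted p = 0.0257). Acadl, for long chains, had 23198, 25125 and 23093 in 7 d IR hearts, against 34729, 35124 and 38164 in 7 d sham hearts. Its arrays were close together within each group, and it had the smallest standard error of the list (log2 change -0.59, SE 0.09, adjusted p = 0.00516). Acadm, for medium chains, had 25248, 30692 and 30434 in 7 d IR hearts, against 38838, 40357 and 47661 in 7 d sham hearts, again without overlap (log2 change -0.55, SE 0.14, adjusted p = 0.0198). Acads, for short chains, had 6553, 7434 and 6916 in 7 d IR hearts, against 10191, 10630.1 and 11461 in 7 d sham hearts, and array 82 did not stand out there (log2 change -0.61, SE 0.15, adjusted p = 0.0205).

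Ivd, the dehydrogenase of the leucine breakdown product isovaleryl-CoA, was called on both days. At 2 d it had 7762, 7194 and 7703 in IR hearts, against 10483, 11455 and 9731 in sham hearts. At 7 d it had 5404, 5645 and 6132 in IR hearts, against 8926, 7852 and 9966 in sham hearts. The groups lay apart on both days, and Ivd was 1.39-fold lower at 2 d (log2 change -0.47, SE 0.11, adjusted p = 0.0436) and 1.53-fold lower at 7 d (log2 change -0.62, SE 0.11, adjusted p = 0.00805). At 2 d the other dehydrogenases had changes between -0.35 (Acadl) and -0.19 (Acadm), of which Acadl alone had groups that did not overlap (adjusted p = 0.0616). Acadsb, for short branched chains, was too dim to test, with signals of 272 to 553 over the 12 arrays.

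Promoters were read from a RefSeq table of assembly GRCr8 (250 bases before to 50 after the start of each gene), in which 33 of the 38 genes matched; Cpt1b, Acadl, Acaa2, Decr1 and Ech1 did not. The letters AGGTCA, the core that PPAR and related nuclear receptors bind, were searched on both strands, alone, as a direct repeat with 1 base of any kind between the copies (the PPAR and RXR consensus), and as TCAAGGTCA, the extended core of oestrogen-related receptors, which contains AGGTCA. The direct repeat was in 0 of the 33 promoters and in 18 of all 33469 (0.0538%), and the extended core in 0 of 33 and in 145 of 33469 (0.433%). The single core was in 6 of 33 (18.2%) and, among the genes called lower at 7 d, in 5 of 19 (26.3%), against 5415 of 33469 (16.2%). These are letters in a window of 300 bases and not binding sites. Only exact letters were counted, so a core or repeat with a changed base was missed. The 3 promoters below hold the core and belong to genes called at 7 d, and they were chosen after the matches were seen; capitals mark the core or its reverse complement TGACCT. The Acadvl promoter (GRCr8 chr10:55236656-55236955, minus strand) holds it at bases -169 and -17 from the start. The Hadhb promoter (GRCr8 chr6:31907451-31907750, minus strand) holds it at base 43, on the opposite strand. The Eci1 promoter (GRCr8 chr10:13961000-13961299, plus strand) holds it at base -94, on the opposite strand.
Acadvl: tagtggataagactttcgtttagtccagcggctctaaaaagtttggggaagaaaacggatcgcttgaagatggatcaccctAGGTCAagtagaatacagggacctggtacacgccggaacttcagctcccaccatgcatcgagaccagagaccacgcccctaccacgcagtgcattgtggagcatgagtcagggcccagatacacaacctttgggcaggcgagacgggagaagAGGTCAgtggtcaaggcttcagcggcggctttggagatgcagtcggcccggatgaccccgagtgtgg
Hadhb: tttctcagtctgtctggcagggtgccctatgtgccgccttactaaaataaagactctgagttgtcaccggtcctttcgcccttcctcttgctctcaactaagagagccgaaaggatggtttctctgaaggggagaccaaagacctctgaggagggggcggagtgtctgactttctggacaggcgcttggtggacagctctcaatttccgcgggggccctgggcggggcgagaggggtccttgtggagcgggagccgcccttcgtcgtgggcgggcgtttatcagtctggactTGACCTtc
Eci1: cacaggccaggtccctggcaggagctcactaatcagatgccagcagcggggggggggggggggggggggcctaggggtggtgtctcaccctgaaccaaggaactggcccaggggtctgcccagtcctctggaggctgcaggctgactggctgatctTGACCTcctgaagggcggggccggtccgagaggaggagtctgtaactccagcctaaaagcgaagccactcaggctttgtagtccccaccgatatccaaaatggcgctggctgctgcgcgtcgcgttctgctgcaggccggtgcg

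Each of the 3 genes of the electron transfer flavoprotein system fell at 7 d (median change -0.82). Etfa and Etfb encode its subunits and Etfdh the oxidoreductase that passes the electrons on to ubiquinone. Etfa had 9797, 10248 and 11083 in 7 d IR hearts, against 14349, 14905 and 17042 in 7 d sham hearts (log2 change -0.56, SE 0.12, adjusted p = 0.0117). Etfb had 10351, 10329 and 11632 in 7 d IR hearts, against 16661, 18930.3 and 22402 in 7 d sham hearts, and was 1.77-fold lower (log2 change -0.82, SE 0.16, adjusted p = 0.00876). For both subunits every IR array lay below every sham array. Etfdh had 4974, 5268 and 6000.3 in 7 d IR hearts, against 8486, 9441 and 12069 in 7 d sham hearts, again without overlap, and was 1.8-fold lower (log2 change -0.85, SE 0.17, adjusted p = 0.00999). At 2 d the 3 genes had changes of -0.27, -0.46 and -0.42, with groups that did not overlap, and none passed (adjusted p between 0.115 and 0.210).

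The 5 genes of hydration, oxidation and thiolysis also fell at 7 d (median change -0.67). Hadha and Hadhb encode the alpha and beta subunits of the mitochondrial trifunctional protein, which handles long chains. Hadha had 5994, 9017 and 6116 in 7 d IR hearts, against 9397, 9797 and 14886 in 7 d sham hearts, with IR array 47 just under the lowest sham array and sham array 82 far above the others (log2 change -0.67, SE 0.19, adjusted p = 0.0352). Hadhb had 18186, 20636 and 18818 in 7 d IR hearts, against 26974, 28069 and 35370.2 in 7 d sham hearts, with a clear gap (log2 change -0.64, SE 0.13, adjusted p = 0.0102). The changes of both subunits were close to each other on each day, -0.67 and -0.64 at 7 d, and -0.26 and -0.26 at 2 d. In GRCr8 both genes start from a shared stretch of chromosome 6 and run in opposite directions, with start sites 301 bases apart (Hadha at 31907801 on the plus strand, Hadhb at 31907500 on the minus strand), so that 200 bases of the Hadhb promoter printed above (31907551 to 31907750) are also in the promoter of Hadha.

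Hadh, the dehydrogenase for medium and short chains, had 10173, 12588 and 9754 in 7 d IR hearts, against 15259.9, 15399 and 22474 in 7 d sham hearts. The groups did not overlap, and sham array 82 was the highest (log2 change -0.68, SE 0.19, adjusted p = 0.0321). Acaa2, the mitochondrial thiolase, had 13062, 16511 and 12154 in 7 d IR hearts, against 22055, 21016 and 29902 in 7 d sham hearts, and was 1.73-fold lower (log2 change -0.79, SE 0.18, adjusted p = 0.0135). Its 2 d signals were 17156, 25576 and 25978 in IR hearts, against 34216, 34783 and 27803 in sham hearts, apart from each other but short of the threshold (log2 change -0.51, SE 0.18, adjusted p = 0.117). Echs1, the hydratase for short chains, ranged from 5557 to 8035 in 7 d IR hearts and from 9097 to 10539 in 7 d sham hearts (log2 change -0.56, SE 0.14, adjusted p = 0.0244).

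All 4 genes that deal with double bonds fell at 7 d (median change -0.68). Eci1, whose product shifts a double bond so that oxidation of an unsaturated chain can go on, had 8133, 10191 and 7512 in 7 d IR hearts, against 15368, 17369 and 23694 in 7 d sham hearts. The highest IR array lay well below the lowest sham array, and Eci1 was 2.14-fold lower (log2 change -1.10, SE 0.18, adjusted p = 0.00548). At 2 d it had 15146, 23576 and 22303 in IR hearts, against 27229, 24024 and 24012 in sham hearts, with array 69 far below the others and no call (log2 change -0.32, SE 0.18, adjusted p = 0.321). The probe set read for Eci1 is of a type that can also match other transcripts, and a further probe set of the gene was too dim to test. Eci2, a related isomerase found also in peroxisomes, had 6039.7, 6479.8 and 6213 in 7 d IR hearts, against 9066, 9205 and 10390.5 in 7 d sham hearts. The arrays of each group lay close together (log2 change -0.60, SE 0.14, adjusted p = 0.0158). Eci1 minus Eci2 differed between IR and sham hearts by 0.13 at 2 d and by -0.50 at 7 d (average -0.19), given as a description with no test.

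Decr1, the reductase for dienoyl-CoA, had 8244, 8445 and 7842 in 7 d IR hearts, against 10811, 10704 and 19420.0 in 7 d sham hearts. Array 82 was far above the other sham arrays and the change passed narrowly (log2 change -0.67, SE 0.21, adjusted p = 0.049); averaged over both days it did not (log2 change -0.42, SE 0.15, adjusted p = 0.0535). Ech1, an isomerase for dienoyl-CoA, had 11078, 17092 and 13314 in 7 d IR hearts, against 20324, 19525 and 27259 in 7 d sham hearts, without overlap (log2 change -0.69, SE 0.17, adjusted p = 0.0214). At 2 d the changes of Decr1, Ech1 and Eci2 were -0.17, -0.40 and -0.45, and none passed (adjusted p = 0.705, 0.194 and 0.0811).

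No peroxisomal or thioesterase gene was called on either day, with 1 of 2 tested in each role. Ehhadh, the bifunctional enzyme of peroxisomal oxidation, had 199.5, 290.1 and 139 in 7 d IR hearts, against 189, 331 and 463 in 7 d sham hearts, with overlap (log2 change -0.35, SE 0.25, adjusted p = 0.392). At 2 d it had 288, 276 and 325 in IR hearts, against 399.7, 625 and 504 in sham hearts, without overlap and without a call (log2 change -0.51, SE 0.25, adjusted p = 0.259). Such low signals are compressed by the 195 added before taking logs. Acot2, the mitochondrial acyl-CoA thioesterase, had 190.2, 364 and 341 in 7 d IR hearts, against 1195, 475 and 828 in 7 d sham hearts. The groups did not overlap, and the change, 2.02-fold lower, did not pass (log2 change -1.01, SE 0.33, adjusted p = 0.0582). At 2 d it had 687, 2182 and 778 in IR hearts, against 1332, 992 and 1046 in sham hearts, with array 73 above all others, and the change of -0.05 was -0.50 without that array and did not pass in either case (adjusted p = 0.959 and 0.284). Acot1, the cytosolic thioesterase, had signals of 10.0 to 176 over the 12 arrays and was not tested.

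Of the ketone body genes 1 of 3 was called at 7 d. Acat1, the thiolase for acetoacetyl-CoA, had 9839, 13568 and 11909.8 in 7 d IR hearts, against 16708, 17751 and 19833 in 7 d sham hearts. The groups lay apart (log2 change -0.62, SE 0.13, adjusted p = 0.0121). Oxct1, succinyl-CoA transferase and the committed enzyme of ketone body use, had 18441, 22959 and 23526 in 7 d IR hearts, against 25939.5, 28172 and 29203 in 7 d sham hearts, and 17985, 22951 and 22372 in 2 d IR hearts, against 28842, 28305 and 26922 in 2 d sham hearts. Its IR arrays lay below the sham arrays on both days, and neither day alone passed (adjusted p = 0.0582 at 7 d and 0.0701 at 2 d), while the average did (log2 change -0.39, SE 0.08, adjusted p = 0.00536). Bdh1, the dehydrogenase of beta-hydroxybutyrate, had 587, 693 and 779 in 7 d IR hearts, against 923, 1465 and 1278 in 7 d sham hearts, without overlap and just short of the threshold (log2 change -0.67, SE 0.21, adjusted p = 0.0528). In 2 d IR hearts it had 1074, 496 and 1036, against 1361, 1515 and 1347 in 2 d sham hearts, with array 73 lowest (log2 change -0.64, SE 0.21, adjusted p = 0.105). Averaged over both days Bdh1 passed (log2 change -0.66, SE 0.15, adjusted p = 0.00728). A further probe set of Bdh1 gave -0.09 at 2 d and -0.77 at 7 d and did not pass.

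The sham hearts of the 2 days were compared as well, since they are the controls of the day-wise effects. 0 of the 35 genes passed with limma, where 0.076% of all probe sets did, and 7 had an unadjusted p under 0.05. The median change, 7 d minus 2 d, was -0.16, and it ran from -0.49 (Slc27a1) to 0.54 (Acsl3). Between the IR hearts, 9 genes were lower at 7 d than at 2 d, where 0.997% of all probe sets were. They were Slc27a1, Cpt2, Crat, Acadl, Hadhb, Acaa2, Eci1, Ech1 and Acot2. Eci1 had 8133, 10191 and 7512 in 7 d IR hearts, against 15146, 23576 and 22303 in 2 d IR hearts (log2 change -1.21, SE 0.18, adjusted p = 0.00195). The highest 7 d array lay below the lowest 2 d array, and Eci1 was called in each of the 12 fits that left out an array, unlike the other 8. Acot2 had 190.2, 364 and 341 in 7 d IR hearts, against 687, 2182 and 778 in 2 d IR hearts (log2 change -1.38, SE 0.33, adjusted p = 0.0312). The count of 9 was 2 without 2 d IR array 73 or without 7 d IR array 48, 3 without 2 d IR array 76 or without 7 d IR array 44, 17 without 2 d IR array 69, and between 7 and 13 without any other array. Over all probe sets 363 were called in either direction with all arrays, 192 without array 73, 229 without array 48, 213 without array 76, 232 without array 44 and 406 without array 69. In the same comparison 15 of 23 fibroblast and matrix markers were called higher (median 1.17), where 258 of all 10527 probe sets were. Also called higher were 3 of 17 macrophage and monocyte markers (median 0.03), 2 of 2 neutrophil markers (median 1.63) and 1 of 2 adipocyte markers. With limma 0 of 21 cardiomyocyte markers were called (median -0.20, 6 with an unadjusted p under 0.05). Among 4 atrial markers limma called 0, with all 4 changes above 0 (median 0.79, 2 with an unadjusted p under 0.05). Between the sham hearts, 7 d minus 2 d, 1 of 2 neutrophil markers was called higher (median 1.76). There limma called 0 of 23 fibroblast and matrix markers (median 0.55, 12 with an unadjusted p under 0.05). It also called 0 of the 4 atrial markers, with all 4 changes above 0 (median 1.24, 3 with an unadjusted p under 0.05). The part of these cells in the lower values of the 9 genes was not tested. The comparison of the IR hearts uses the same IR arrays as the IR effects of the days.

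**Figure D4:**
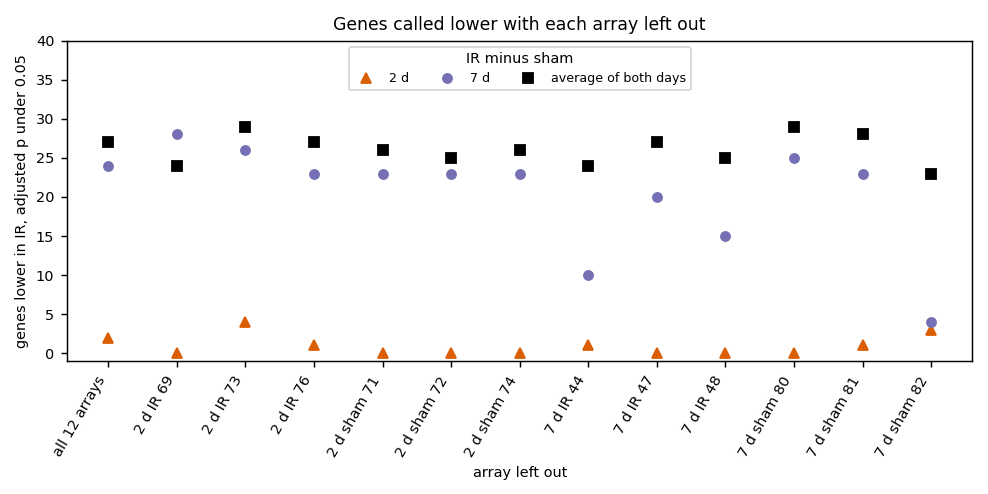
Number of genes of the 35 called lower in IR hearts (vertical axis) with all 12 arrays and with each array left out in turn (horizontal axis), for 2 d, 7 d and the average of both days. The 7 d count is 24 with all arrays, 4 without sham array 82 and 10 without IR array 44, while the average over both days stays between 23 and 29.

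Markers of the cells in the tissue moved with the same arrays. Of 22 cardiomyocyte markers 21 were tested, none read 0 on any array, and their mean level against the sham mean of the day was -0.590 on array 69, and -0.170 and -0.285 on the other 2 d IR arrays, against -0.052 to 0.082 on the 2 d sham arrays. On the 7 d IR arrays it was -0.530 to -0.383, against -0.077 to 0.141 on the 7 d sham arrays, with the highest value on array 82. 12 of the 21 were called lower and 0 higher at 7 d (median -0.41), where 5.84% of all tested probe sets were called lower. At 2 d 1 was called lower (median -0.35), where 0.589% of all tested probe sets were. The macrophage and monocyte markers (17 of 22 tested) lay at 0.679 to 1.446 on the 2 d IR arrays, highest on array 69, against -0.141 to 0.248 on the 2 d sham arrays. They lay at 0.783 to 1.068 on the 7 d IR arrays, against -0.457 to 0.264 on the 7 d sham arrays, lowest on array 82. The fibroblast and matrix markers (23 of 23 tested) lay at 0.846 to 1.118 on the 7 d IR arrays, against -0.632 to 0.355 on the 7 d sham arrays. Macrophage markers called higher numbered 11 of 17 at 2 d and 13 of 17 at 7 d. Fibroblast and matrix markers called higher numbered 1 of 23 at 2 d and 16 of 23 at 7 d. Of all tested probe sets 1.88% were called higher at 2 d and 6.22% at 7 d, and 0.589% and 5.84% were called lower. Of 10 tested endothelial markers 0 were called at 2 d and 1 was higher at 7 d, of 4 atrial markers 0 were called at 2 d and 1 was lower at 7 d, and of 2 tested markers each of adipocytes and neutrophils 0 were called at 2 d and 1 was higher at 7 d. The part of these cells in the changes of the oxidation genes was not tested.

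**Figure D5:**
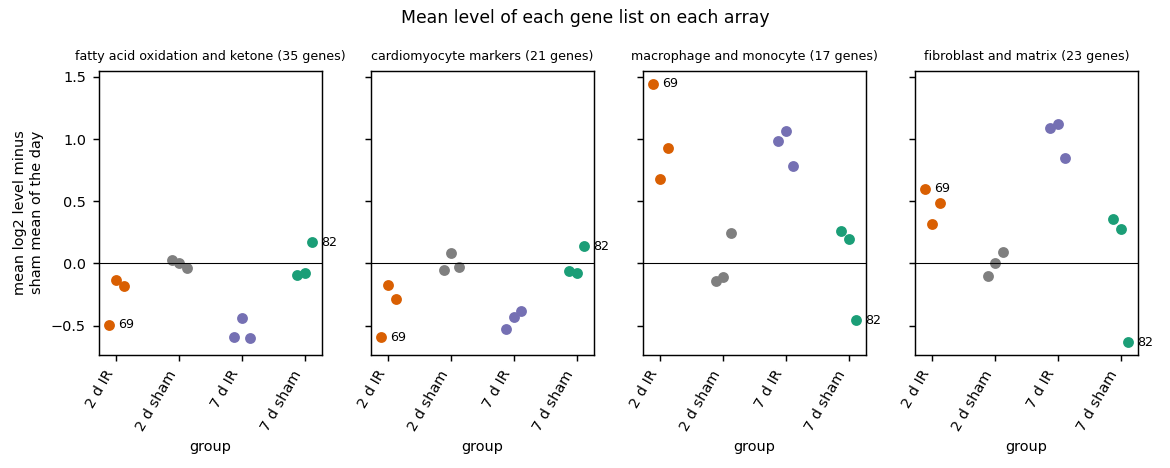
Mean log2 level of 4 gene lists on each array minus the mean of the sham arrays of the same day; each point is an array, and arrays 69 and 82 are labelled. Within each day the oxidation genes and the cardiomyocyte markers are lowest on IR arrays, and the macrophage and the fibroblast markers are highest there. Across the days the fibroblast markers are higher on 7 d sham array 80 (0.355) than on 2 d IR array 73 (0.321). Array 82 lies opposite to the IR arrays in each panel.

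The oxidation genes were also measured against the cardiomyocyte markers, by taking the mean of the 21 markers from each array before the fit. The list of 22 markers held Myh6, Myl2, Myl3, Tnnt2, Tnni3, Tnnc1, Actc1, Actn2, Mybpc3, Tpm1 and Ttn. It also held Ryr2, Atp2a2, Pln, Casq2, Ckm, Ckmt2, Mb, Csrp3, Tcap, Ldb3 and Myoz2. The tested markers had a mean log2 level of 14.67 to 15.40 over the arrays, against 12.34 to 13.11 for the 35 genes. Whether such bright signals follow RNA amount as well as dimmer ones was not tested. Taking off the marker mean shifts the median change of all probe sets to 0.35 at 2 d and 0.46 at 7 d, so that changes are read relative to the markers only. On that scale 4 genes were called lower at 7 d, where 0.294% of all probe sets were, namely Eci1 (-0.65, adjusted p = 0.00521), Etfdh (-0.40, adjusted p = 0.0216), Etfb (-0.38, adjusted p = 0.0226) and Acaa2 (-0.34, adjusted p = 0.0491). Acsl5 (0.84, adjusted p = 0.0201) and Slc22a5 (0.66, adjusted p = 0.0175) were called higher, where 42% of all probe sets were. The median of the 35 genes was -0.17 at 7 d and 0.00 at 2 d. At 2 d 0 were called lower, where 0.0665% of all probe sets were, and Acsl4 (1.40, adjusted p = 0.0228), Acsl5 (0.94, adjusted p = 0.0304) and Cpt1a (0.52, adjusted p = 0.0357) were called higher, where 17% of all probe sets were. The other 20 genes called lower at 7 d did not pass on this scale. A further probe set of Cpt1a changed by -0.23 at 2 d before the markers were taken off, and no value relative to them was read for it.

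Other genes of the same and neighbouring routes were read from a further list of 44, of which 37 were tested. 14 were called lower at 7 d and 0 higher, with a median of -0.38, where 5.84% of all tested probe sets were called lower and 6.22% higher. At 2 d 1 was called lower, where 0.589% of all tested probe sets were, and 1 higher, where 1.88% were. Hibch, which acts in valine breakdown, had 2349.8, 2103 and 2113 in 7 d IR hearts, against 3458, 4118 and 4575 in 7 d sham hearts (log2 change -0.83, SE 0.18, adjusted p = 0.0121). Acot13, a mitochondrial thioesterase, had 5134, 5803 and 6105 in 7 d IR hearts, against 8509, 10093 and 11617 in 7 d sham hearts (log2 change -0.80, SE 0.16, adjusted p = 0.00946). Both sets of groups lay apart. Phyh, which starts the breakdown of phytanic acid in peroxisomes, changed by -0.74 (SE 0.11, adjusted p = 0.00323), and Pnpla2, the lipase that opens stored triglyceride, by -0.72 (SE 0.14, adjusted p = 0.00946). At 2 d Hibadh, of valine breakdown, was lower (log2 change -0.47, SE 0.11, adjusted p = 0.0453). Fabp5, the fatty acid binding protein best known from skin and macrophages, was higher at 2 d, with 15824, 9225 and 12672 in IR hearts, against 5533, 5230.4 and 5964 in sham hearts (log2 change 1.11, SE 0.17, adjusted p = 0.0132). Every 2 d IR array was above every sham array, array 69 most of all, and the macrophage markers given above were highest on the same array. The part of macrophages in the rise of Fabp5 was not tested.

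Of 20 regulators of these genes 14 were on the array and 11 were tested, with 0 called at 2 d (4 with an unadjusted p under 0.05). At 7 d 3 were called lower and 0 higher, where 5.84% of all tested probe sets were called lower. Averaged over both days 4 were called lower and 1 higher, where 10.5% and 12.4% of all tested probe sets were. These average changes ran up to 0.70. Prkaa2, a catalytic subunit of AMP-activated kinase, had 3718, 1588 and 4146 in 7 d IR hearts, against 5284, 5182 and 7020.1 in 7 d sham hearts, and passed at the edge of the threshold (log2 change -0.94, SE 0.29, adjusted p = 0.04997). Sirt3, the mitochondrial deacetylase, changed by -0.70 (SE 0.20, adjusted p = 0.0337) and Esrra, the oestrogen-related receptor alpha, by -0.64 (SE 0.19, adjusted p = 0.0459). Ppara, which encodes PPARalpha, read 52.7 to 265 over the 12 arrays and Ppargc1a, its coactivator, 11.8 to 138, and both lay below the filter, so that no change is given for them. Among 7 tested PPAR targets outside the oxidation steps, Angptl4, an inhibitor of lipoprotein lipase, was higher at 2 d, with 2641, 2714 and 2437 in IR hearts, against 504, 513 and 822 in sham hearts (log2 change 1.81, SE 0.38, adjusted p = 0.0285). At 7 d Cidea (log2 change -0.77, SE 0.21, adjusted p = 0.0284) and Plin2 (log2 change -0.60, SE 0.13, adjusted p = 0.0133), both proteins of lipid droplets, were lower. Pdk4, which inhibits pyruvate dehydrogenase, changed by 0.35 (SE 0.31, adjusted p = 0.574) at 2 d and -0.45 (SE 0.31, adjusted p = 0.386) at 7 d.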

How the data were processed

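Total RNA of rat ventricle was hybridised to 1 array per rat, and groups were taken from the sample titles, since the written design omits the 2 d sham group. The deposited values are linear signal intensities per probe set from the MAS5 software that the authors used (per the submitters' processing notes; version not given). Trimmed array means were 1500.4 to 1500.5, so the intensities had been scaled per array. No arrays held identical values, and mean correlations within groups were 0.957 or higher. The number of arrays limits the precision.

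Log2(signal + 195) was analysed, 195 being the median over arrays of the 20th percentile. Of 15923 probe sets, 57 controls and those not above the 40th percentile of the array on 3 or more arrays were dropped, leaving 10527. Symbols came from GEO's platform annotation, and the brightest probe set with 1 symbol stood for a gene. The 4 group means were fitted together in limma 3.58.1 (R 4.3.3, eBayes with an intensity trend, two-sided tests), checked on simulated data. P-values measure the spread between these rats, and no batch is given. The genes, lists and pairs were chosen with earlier results of these data known. All 38 genes are named. Per-array signals are given for called genes with groups that lie apart (up to 4 per role) and the brightest gene of each role, and from other lists up to 4 called genes per IR comparison are named. Promoters were to be printed for the direct repeat or the extended core; with 0 matches, some with the single core are shown. The alternatives were another pseudocount, filter, trend setting, scaling, weighting, control and set of arrays.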

Additional observations from a re-analysis of the deposited data

Results flagged for a closer look

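Acadsb and Acot1, both below the filter on dim probe sets and so not tested, were picked out because their IR arrays lay on opposite sides of the sham mean on the 2 days. Acadsb had 367, 553 and 427 in 7 d IR hearts, against 456, 272 and 370.2 in 7 d sham hearts, and 409.7, 441 and 406 in 2 d IR hearts, against 456, 419 and 452 in 2 d sham hearts. The log2 change was 0.20 at 7 d and -0.05 at 2 d, a difference of 0.26 between the days that was not tested. Acot1 had 51.4, 35.2 and 10.0 in 7 d IR hearts, against 120.4, 155 and 96.6 in 7 d sham hearts, and 120.2, 176 and 134 in 2 d IR hearts, against 175, 54.8 and 95.8 in 2 d sham hearts. Its log2 change was -0.49 at 7 d and 0.17 at 2 d, a difference of -0.66 that was not tested either, at signals under the 195 added before taking logs.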

How the results depend on the processing

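The number of genes called at 7 d, 24, was between 18 and 32 under 11 of the 12 settings other than leaving out a single array, and 6 relative to the cardiomyocyte markers; with an array left out it ran from 4 to 28. The count for the average of both days, 29, was 10 relative to the cardiomyocyte markers and 25 to 31 with an array left out. The count at 2 d, 3, was 0 with dim probe sets kept in, 0 without the intensity trend, 0 after quantile normalization, 0 with the sham arrays of the other day as control, 0 without arrays 69 and 82 together and 1 with only the 2 groups compared, and 0 to 6 with an array left out. The count of 9 between the IR hearts of the 2 days was 16 with array weights, 3 without a filter, 3 without the trend, 4 with only the groups compared, 4 relative to the cardiomyocyte markers and 21 without arrays 69 and 82, and 2 to 17 with an array left out. Between the sham hearts it was 0, and 1 without arrays 69 and 82, with a range of 0 to 1 with an array left out; for the difference of the days' effects it was 0 throughout. The cause of these shifts was not tested. Relative to the cardiomyocyte markers, the average change turned positive for Slc27a1 (0.0093), Slc22a5 (0.3955, adjusted p = 0.0229), Mlycd (0.0202), Acadm (0.0290) and Oxct1 (0.0103), since this scale subtracts the markers' own change from every gene. Median centring left the 7 d calls of the list at 28 lower and 0 higher, while over all probe sets the share of calls that were higher was 37.9%, against 51.6% without it, and 39.6%, against 54.1%, for the average and 62.5%, against 76.2%, at 2 d; at 7 d minus 2 d IR it was 65.7%, against 71.1%. No paired analysis was possible because the groups share no replicate numbers. Array signals near background, as for Ehhadh, Acot1 and Acadsb, limit what can be said of dim genes.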
